A study of Mus musculus with 12 samples.

Results

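A set of 8 genes that mark fibroblasts and pericytes of the lung were followed through RNA-seq of tumour cells sorted from mouse lungs: Dcn, Lum, Mgp, Inmt, Pdgfra, Pdgfrb, Tcf21 and Fbln1. They are taken by gene name, with no threshold on their values, from a set put together with earlier results of these data known. Collagens were left aside, and the set holds 8 of the 54146 genes in the table. The sorted cells were D2A1, a mouse mammary carcinoma line carrying a histone fused to green fluorescent protein (H2B-GFP) and CellVue Claret (CVC), a membrane dye that fades as cells divide. GFP+ cells that had kept the dye were taken as dormant and GFP+ cells that had lost it as growing, 12 days after tail vein injection by the study's methods (14 days in its results text). Hosts were female mice of 6 to 8 weeks, either labelled WT, which the figure descriptions call flox controls (Tgfbr2 fl/fl), or labelled Tgfbr2 KO, in which Tgfbr2 floxed alleles were deleted by a Cre driven from the Lysozyme 2 promoter (LysM-Cre). That Cre acts in myeloid cells, so the injected tumour cells keep their own Tgfbr2 in both hosts. The 12 libraries formed 4 groups of 3, named here dormant KO, dormant WT, growing KO and growing WT, each made from an aliquot of 50 cells. Nothing in the labels says that the 3 libraries of a group came from separate mice, although the figure descriptions give 3 mice per group, so p-values measure the spread between these libraries.

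Fibroblasts lay down and organise the extracellular matrix of the alveolar wall, the airways and the vessels, and pericytes wrap the capillaries. Decorin (Dcn) and lumican (Lum) are small leucine-rich proteoglycans that bind collagen fibrils, matrix Gla protein (Mgp) holds back calcification and binds bone morphogenetic proteins, and fibulin 1 (Fbln1) is a glycoprotein of basement membranes and elastic fibres. Pdgfra and Pdgfrb code for the receptors of platelet-derived growth factors that are used to recognise fibroblasts and pericytes, Tcf21 for a basic helix-loop-helix transcription factor of lung mesenchyme, and Inmt for indolethylamine N-methyltransferase, an enzyme that is abundant in lung.

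Levels are given as TPM, a transcript abundance that is corrected for gene length and scaled to a total of 1000000 per library, so that the depth behind a value is unknown. Between 11325 and 15315 genes were above 0 per library. All WT libraries carry library batch 1 in their names and all KO libraries batch 2, so a difference between hosts and one between batches cannot be told apart, whereas a comparison of states within a host stays within 1 batch. Tgfbr2 itself ranged from 0.14 to 11.09 TPM in dormant WT and from 2.19 to 11.48 TPM in dormant KO, which does not check the labels because the deletion was made in host cells. A gene is said to have risen or fallen where limma gave a Benjamini-Hochberg adjusted p of at most 0.05 over all 13002 genes tested and a difference of at least 1 on the log2(TPM + 1) scale, and differences on that scale understate the change of low genes. With 3 libraries against 3, an exact permutation test of a single gene cannot go below p = 0.1, so it was not used.

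The 8 genes did not behave as a set in dormant cells. Dcn, Mgp, Inmt and Tcf21 were higher in dormant KO than in each other group, with Dcn at 1093.75 TPM or more in every dormant KO library. Lum, Pdgfra, Pdgfrb and Fbln1 did not rise in dormant KO, and the receptors used to recognise fibroblasts and pericytes were at 3.38 TPM or less there. Set against dormant WT, 4 of the 8 rose in dormant KO, where 12.9% of all genes tested rose and 9.39% fell. None of the other 4 had an unadjusted p under 0.05 in limma's test. Tcf21, 1 of the 4, passed the filter on low values only through dormant KO, so it had to differ and the count of 4 is a description. Over the 7 genes with no group listed at 0 throughout, the median difference was -0.64, beside a median of 0.04 over the 11185 genes tested of which the same can be said.

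**Figure D1:**
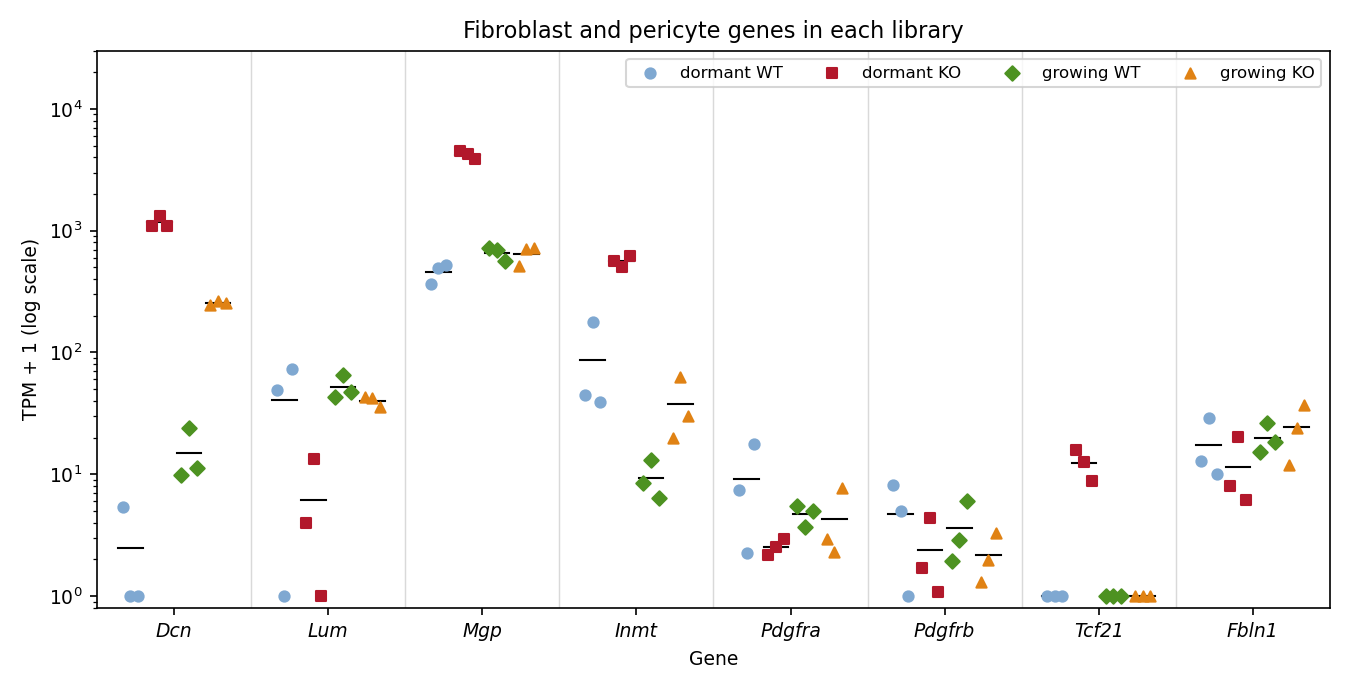
Level of the 8 genes in each of the 12 libraries, as TPM + 1 on a log axis, with the gene on the horizontal axis, 1 symbol per library, the group given by colour and shape, and a bar at the mean of each group. The dormant KO libraries (squares) lie above all others for Dcn, Mgp, Inmt and Tcf21 and within or below the range of the others for Lum, Pdgfra, Pdgfrb and Fbln1.

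Dcn (ENSMUSG00000019929.16, chromosome 10, 97479609 to 97518143 on the plus strand of GRCm38) spanned the widest range of the 8 on the log2(TPM + 1) scale. The dormant KO libraries gave 1097.94, 1324.03 and 1093.75 TPM and those of dormant WT 4.39, 0 and 0 TPM. The growing KO libraries held 244.95, 263.22 and 253.68 TPM and the growing WT libraries 8.78, 22.90 and 10.24 TPM. No group overlapped another, and the order from high to low was dormant KO, growing KO, growing WT, dormant WT. The mean in dormant KO was 1172 ± 132 TPM (SD, n = 3), which placed Dcn at rank 132 of all genes by mean TPM, against rank 10822 in dormant WT. The difference between the dormant groups was 9.38 ± 0.60 (SE) on the log2(TPM + 1) scale (adjusted p 1.39e-06). Because 2 of the 3 dormant WT libraries are listed at 0, its size follows the pseudocount: it was 11.68 with a pseudocount of 0.1 and 7.57 with a pseudocount of 5, and Dcn was called in all 21 alternative fits.

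Dcn was also the gene of the 8 that rose in growing KO over growing WT, by 4.21 ± 0.60 (adjusted p 0.00538). In that comparison 0.715% of all genes rose and 0.261% fell, and 1 of the 8 genes was called. The call was lost with a pseudocount of 0.1, at an adjusted p of 0.185. Within KO hosts Dcn was higher in dormant than in growing cells by 2.20 ± 0.60 (adjusted p 0.0235), in a comparison in which 8.31% of all genes rose and 9.48% fell. This call was lost when any library of either KO group was left out (adjusted p 0.0618 to 0.0738), with a pseudocount of 0.1 (0.257) and without a filter on low values (0.0555), while the difference stayed between 2.11 and 2.24 in these fits. Within WT hosts the direction was the opposite, and Dcn was lower in dormant than in growing cells by a difference of -2.98 ± 0.60 (adjusted p 0.0119), where 1.85% of all genes rose and 5.67% fell. That call was lost in a fit of only the groups compared (0.148), with array weights (0.058) and without growing WT replicate 2 (0.0569). These comparisons share libraries with each other. The difference of the differences, dormant minus growing in KO hosts less the same in WT hosts, was 5.17 ± 0.85 (adjusted p 0.00321); in this interaction 6.18% of all genes were higher and 3.91% lower.

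Zeros were more frequent in dormant WT than in the other dormant group. Of 4008 genes with at least 10 TPM in all growing libraries, 4.27%, 12.3% and 9.03% were listed at 0 in dormant WT replicates 1, 2 and 3, against 0.724% to 0.823% in the dormant KO libraries. Their part in the results for Dcn, Lum and Pdgfrb, each listed at 0 in at least 1 dormant WT library, was not tested.

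Lum (ENSMUSG00000036446.5, chromosome 10, 97565128 to 97572703, plus strand) lies 46984 bases downstream of Dcn on the same strand with no annotated gene between them, and had another pattern. Dormant KO held 2.95, 12.39 and 0.01 TPM of it and dormant WT 48.46, 0 and 71.78 TPM. The growing libraries were close to each other, with growing WT at 41.81, 64.45 and 46.21 TPM and growing KO at 41.79, 41.46 and 34.45 TPM. All 3 dormant KO libraries thus lay below all 6 growing libraries, while dormant WT overlapped dormant KO through its replicate 2 alone. The dormant KO difference was -2.02 ± 1.39 from dormant WT (adjusted p 0.339) and -3.41 ± 1.39 from growing KO (0.116), and neither was called. Without dormant WT replicate 2, in which Lum is listed at 0, both were called, at -3.99 (0.00472) and -3.41 (0.0064). The second was called as well in a fit of only the groups compared (0.034) and with array weights (0.00406). No comparison of hosts in growing cells or of states in WT hosts reached the threshold for Lum.

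Mgp (ENSMUSG00000030218.2, chromosome 6, 136872435 to 136875823, minus strand) was abundant in all 12 libraries. The dormant KO libraries gave 4540.71, 4231.41 and 3842.42 TPM, those of dormant WT 362.79, 494.77 and 522.88 TPM. Growing WT held 725.06, 686.44 and 561.99 TPM and growing KO 515.60, 701.81 and 725.37 TPM. Dormant KO stood clear of the other groups and the growing groups overlapped, so that the gene ranked 27 of all genes by mean TPM in dormant KO and between 280 and 370 elsewhere. The difference was 3.20 ± 0.17 between dormant KO and dormant WT (adjusted p 3.91e-07) and 2.71 ± 0.17 between dormant KO and growing KO (2.6e-06), and each was called in all 21 alternative fits. Between growing KO and growing WT it was -0.03 ± 0.17 (adjusted p 1.0), and between dormant WT and growing WT -0.52 ± 0.17 (0.0878). The interaction was 3.23 ± 0.25 (adjusted p 2.71e-05).

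Inmt (ENSMUSG00000003477.5, chromosome 6, 55170626 to 55175043, minus strand) was higher in dormant than in growing cells of both hosts. The dormant KO libraries gave 559.49, 500.51 and 622.92 TPM and those of dormant WT 43.44, 176.93 and 38.15 TPM. Growing KO gave 18.92, 62.18 and 29.07 TPM, and growing WT 7.43, 12.06 and 5.41 TPM. Dormant KO lay above dormant WT by 3.05 ± 0.60 (adjusted p 0.00294) and above growing KO by 4.06 ± 0.60 (0.000607), in all 21 alternative fits. Dormant WT lay above growing WT by 2.93 ± 0.60 (0.0125), which was lost in a fit of only the groups compared (0.0786), with array weights (0.0787) and without growing WT replicate 3 (0.0553). The growing groups did not overlap, yet their difference of 1.91 ± 0.60 was not called (0.28) except with array weights (0.00825). The interaction was not called either, at 1.13 ± 0.84 (0.492), so a larger rise in KO than in WT hosts was not shown for Inmt. Dormant WT and growing KO overlapped and were not tested against each other.

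Tcf21 (ENSMUSG00000045680.8, chromosome 10, 22817281 to 22820174, minus strand) was listed above 0 in 3 libraries, those of dormant KO, at 14.79, 11.65 and 7.77 TPM. The other 9 libraries are listed at 0, so no fold is given. It reached 1 TPM in those 3 libraries alone and so passed the filter only through dormant KO, which fixed the direction of its differences. Its calls against dormant WT and growing KO and in the interaction are therefore no support. Its locus overlaps Gm10824, an antisense gene on the other strand, and the use of strand in the counting was not stated.

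Promoter sequences of Inmt and Tcf21, which rose in dormant KO, and of Pdgfra and Fbln1, which did not, are shown so that the upstream regions of members with different patterns can be set side by side. RefSeq promoters on GRCm38.p6 held these 4 of the 8 genes. Each run covers 197 bases, from 250 to 54 bases before the RefSeq start site, 5′ to 3′ on the strand of the gene, and ends there because a GENCODE transcript of Inmt starts within the bases left out. They lie at chr6:55175044-55175240 (minus strand), chr10:22820197-22820393 (minus strand), chr5:75152001-75152197 (plus strand) and chr15:85205699-85205895 (plus strand). Capitals mark the TATA box letters TATAAA and the E-box letters CANNTG, the latter being the letters that basic helix-loop-helix factors such as Tcf21 recognise.
Inmt: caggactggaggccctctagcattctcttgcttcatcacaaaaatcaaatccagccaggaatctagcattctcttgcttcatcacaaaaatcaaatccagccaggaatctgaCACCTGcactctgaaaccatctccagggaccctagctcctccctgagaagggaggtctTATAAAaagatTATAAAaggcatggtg
Tcf21: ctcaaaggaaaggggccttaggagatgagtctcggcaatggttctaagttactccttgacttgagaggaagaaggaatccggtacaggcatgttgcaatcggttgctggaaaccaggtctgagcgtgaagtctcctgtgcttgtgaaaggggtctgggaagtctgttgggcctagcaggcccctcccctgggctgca
Pdgfra: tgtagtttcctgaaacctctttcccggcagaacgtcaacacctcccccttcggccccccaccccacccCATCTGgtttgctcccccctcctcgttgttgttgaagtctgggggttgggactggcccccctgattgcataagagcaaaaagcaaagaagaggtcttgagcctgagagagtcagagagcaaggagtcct
Fbln1: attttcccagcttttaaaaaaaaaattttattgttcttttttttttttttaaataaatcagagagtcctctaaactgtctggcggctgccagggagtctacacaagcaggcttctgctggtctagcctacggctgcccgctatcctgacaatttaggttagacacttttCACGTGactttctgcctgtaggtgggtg

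Inmt held the TATA box letters at 80 and 69 bases before the RefSeq start site, and Tcf21, Pdgfra and Fbln1 had no match to them in this window. Over 32817 promoters, searched on both strands in the same window, 9.05% had a match. An E-box match stood at 138 bases in Inmt, 182 bases in Pdgfra and 81 bases in Fbln1, with none in Tcf21, where 58.6% of all promoters had at least 1. The E-box core CAGCTG (10.2% of promoters), which is contained in the E-box letters, and the GC box GGGCGG (24.1%) had no match in the 4 windows. A CArG-like motif, a loose form of the element bound by serum response factor, matched at 97 bases in Inmt, at 207 and 185 bases in Pdgfra and at 172 and 69 bases in Tcf21, and 58.4% of all promoters had them. A match describes letters in this window and was not tested as a site.

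Pdgfra (ENSMUSG00000029231.15, chromosome 5, 75152292 to 75198215, plus strand), the receptor for PDGF-AA that is used to sort lung fibroblasts, was low throughout. Dormant KO held 1.18, 1.53 and 1.93 TPM and dormant WT 6.48, 1.27 and 16.72 TPM. Growing WT was at 4.48, 2.69 and 4.0 TPM and growing KO at 1.92, 1.32 and 6.72 TPM. The dormant WT libraries were spread widely, and their replicate 2 fell within the dormant KO range. The dormant KO difference from dormant WT was -1.41 ± 0.74 (adjusted p 0.205) and was called without dormant WT replicate 2, at -2.19 (0.0256), and with quantile normalization, at -1.99 (0.0304). No other comparison of Pdgfra was called in any fit. Its locus overlaps Gm42802 and Gm42803 on the other strand, and Mir7025, with the same limit as for Tcf21.

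Pdgfrb (ENSMUSG00000024620.11, chromosome 18, 61045150 to 61085061, plus strand), the PDGF-BB receptor of pericytes, was at 0.71, 3.38 and 0.08 TPM in dormant KO. Dormant WT held 7.22, 3.95 and 0 TPM, growing WT 0.94, 1.89 and 5.03 TPM and growing KO 0.31, 0.96 and 2.29 TPM. All 4 groups overlapped. The dormant groups differed by -0.78 ± 0.83 (adjusted p 0.554), and the gene was not called in any comparison under the alternatives in which it was tested, which leave out the filter of 5 TPM that it did not pass.

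Fbln1 (ENSMUSG00000006369.14, chromosome 15, 85205949 to 85286535, plus strand) was present in every library. Dormant KO gave 6.96, 19.07 and 5.10 TPM and dormant WT 11.88, 27.86 and 8.97 TPM. Growing WT held 14.24, 25.16 and 17.37 TPM and growing KO 10.93, 23.17 and 35.96 TPM. Here too all groups overlapped. The difference was -0.64 ± 0.64 between the dormant groups (adjusted p 0.52) and -1.15 ± 0.64 between dormant and growing KO (0.249), and no fit called it.

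**Figure D2:**
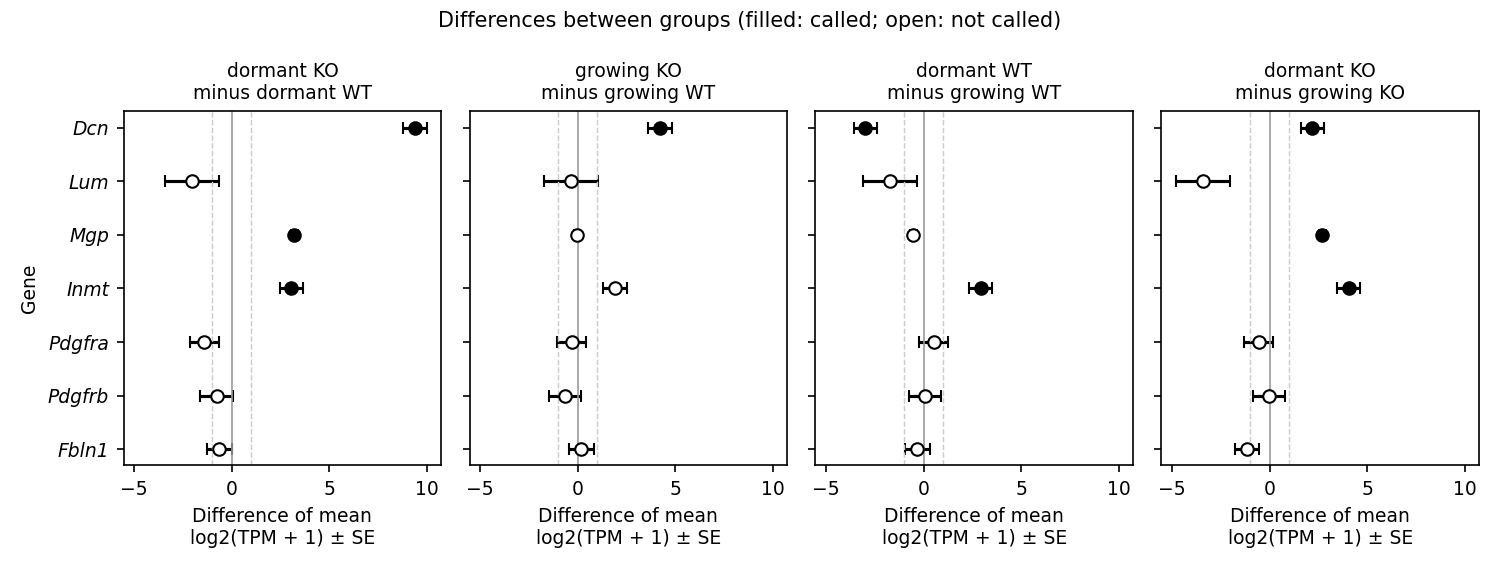
Difference of mean log2(TPM + 1) between groups of 3 libraries for 7 of the genes, with bars of 1 SE from the limma fit, filled where called and open where not, and dashed lines at -1 and 1. Tcf21 is left out because its other libraries are listed at 0. Dcn, Mgp and Inmt are filled in both comparisons of dormant KO, whereas Lum, Pdgfra, Pdgfrb and Fbln1 are open in all 4.

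Among other small leucine-rich proteoglycans, the family of Dcn and Lum, 5 of the 8 tested rose in dormant KO over dormant WT and 3 were not called. For this list and those that follow, the shares over all genes tested in this comparison are 12.9% risen and 9.39% fallen. Here and in the lists that follow, a gene tested only through dormant KO is one with fewer than 3 libraries at 1 TPM outside that group; its test tends to be fixed by the filter, so its rise is a description and no p is given. That held for 3 of the 5 rises. Ogn (osteoglycin) reached 125.21, 208.41 and 94.39 TPM in dormant KO from 0, 0 and 0.38 TPM in dormant WT, a difference of 6.93 ± 0.56 (adjusted p 6.81e-06). Bgn (biglycan), the closest relative of decorin, went from 0.03, 1.16 and 3.10 TPM to 99.33, 189.42 and 123.14 TPM (6.0 ± 0.62, 4.3e-05). Podn reached 31.88, 32.02 and 15.07 TPM in dormant KO from 0 in all dormant WT libraries, and is 1 of the 3 tested only through dormant KO. The other 9 libraries held at most 23.81 TPM of each of these 3 genes. The median difference over the 4 with no group at 0 was 3.86.

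Of the fibulins and elastic fibre genes, 6 of the 11 tested rose, 2 of them tested only through dormant KO, and 5 were not called. Among the relatives of Fbln1, Fbln5 and Efemp1 (fibulin 3) were called. For Fbln2 and Efemp2, also relatives, the dormant groups overlapped, as they did for Fbln1. Mean levels in TPM, dormant KO first and dormant WT second, were 6.39 against 1.40 for Fbln2 and 7.41 against 38.85 for Efemp2. Fbln5 reached 45.04, 51.83 and 42.60 TPM in dormant KO from 0.43, 1.0 and 0 TPM in dormant WT (5.06 ± 0.57, adjusted p 7.37e-05). Efemp1 was listed at 0 in all 6 WT libraries, whereas dormant KO held 465.11, 745.03 and 343.85 TPM and growing KO 9.08, 10.45 and 17.27 TPM (adjusted p 3.81e-07 for dormant and 0.00332 for growing cells). Mfap2, a microfibril protein, was listed at 0 in dormant WT and reached 454.33, 512.18 and 312.55 TPM in dormant KO (2.08e-05). Emilin1 went the other way between states in KO hosts and was lower in dormant than in growing cells (-2.69 ± 0.84, 0.0432). That Fbln1 differs from Fbln5 or Efemp1 in its response was not tested.

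The ligands of the PDGF receptors gave 1 rise and 1 fall among 4 tested. Pdgfa, a ligand of Pdgfra, fell from 39.07, 79.48 and 51.72 TPM in dormant WT to 8.23, 12.66 and 13.35 TPM in dormant KO, with a difference of -2.18 ± 0.48 (adjusted p 0.00627). Pdgfd, a ligand of Pdgfrb, reached 9.14, 20.63 and 2.88 TPM in dormant KO, was listed at 0 in dormant WT and growing KO, and did not exceed 0.28 TPM in growing WT. It was tested only through dormant KO. Pdgfb and Pdgfc held at most 8.58 TPM in any library and were not called.

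Genes tied to matrix Gla protein were the carboxylase and vitamin K reductases that make its Gla residues, the bone morphogenetic proteins it binds and their receptor Bmpr2. Of 6 tested, 3 rose in dormant KO and 3 were not called. Bmp4 was at 30.15, 45.53 and 42.59 TPM there and Bmp6 at 13.46, 21.28 and 18.50 TPM, and both were listed at 0 in dormant WT and tested only through dormant KO. Vkorc1l1, a vitamin K epoxide reductase, rose by 1.60 ± 0.52 (adjusted p 0.0435). The carboxylase Ggcx was not called, with dormant KO at 2.67, 0.38 and 5.89 TPM and dormant WT at 2.60, 0 and 0.37 TPM.

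Other methyltransferases of small molecules, the enzyme class of Inmt, gave 3 rises among 5 tested. Hnmt, which methylates histamine, reached 14.63, 10.61 and 21.55 TPM in dormant KO from 0 in all dormant WT libraries and was tested only through dormant KO. As3mt rose by 2.79 ± 0.93 (adjusted p 0.049), and Nnmt, listed at 0 in all WT libraries, reached 0.19, 20.31 and 9.67 TPM in dormant KO (0.0455), beside 15.49, 9.5 and 4.12 TPM in growing KO.

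Transcription factors of lung mesenchyme were divided in dormant KO against dormant WT, with 2 rises and 2 falls among 8 tested. Tbx2 and Tbx4, T-box factors of the lung mesenchyme, were listed at 0 in dormant WT, whereas dormant KO held 2.86, 3.87 and 5.57 TPM of Tbx2 and 3.27, 5.39 and 2.88 TPM of Tbx4. These are the 2 rises, and both genes were tested only through dormant KO. Prrx1, a homeobox factor of mesenchymal cells, fell from 61.77, 100.63 and 56.14 TPM to 8.15, 2.15 and 0.41 TPM (-4.38 ± 0.64, adjusted p 0.000441). Twist1, also a basic helix-loop-helix factor, fell by a difference of -2.74 ± 0.67 (0.0105). Foxf1 was not called between hosts and was higher in dormant than in growing KO cells by 2.21 ± 0.57 (0.017).

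Further fibroblast markers were divided as well, with 10 rises, 3 falls and 5 without a call among 18 tested, and 4 of the 10 rises were of genes tested only through dormant KO. Gpc3, a cell surface proteoglycan, reached 210.39, 441.73 and 261.06 TPM in dormant KO from 0.14, 0 and 0.25 TPM in dormant WT (8.01 ± 0.57, adjusted p 2.45e-06). Ces1d, a carboxylesterase, and Ccdc80, a matrix protein, rose by 5.27 ± 0.58 (6.29e-05) and 5.19 ± 0.50 (2.51e-05). Scara5, a ferritin receptor, fell from 27.79, 85.79 and 42.87 TPM to 1.96, 0 and 0.02 TPM (-5.05 ± 0.70, 0.000293). Serpinf1, which codes for pigment epithelium-derived factor, and Olfml3, a secreted matrix protein, fell with differences of -4.29 ± 0.76 (0.00158) and -3.30 ± 0.56 (0.00119). Serpinf1 was also at 234.81 to 297.38 TPM in growing WT and 197.42 to 231.73 TPM in growing KO, above its 0.51 to 20.47 TPM in dormant KO. The median over the 13 genes with no group at 0 was 1.13.

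Among fibroblast collagens 4 of 7 rose, 2 of them tested only through dormant KO, and 3 were not called. Col3a1 was listed at 0 in dormant WT and reached 139.60, 196.08 and 154.94 TPM in dormant KO (adjusted p 2.07e-06), and rose in growing KO over growing WT (4.01 ± 0.50, 0.00225). Col1a2 rose by 3.10 ± 0.87 (0.0225). Col1a1, the other chain of type I collagen, was not called, with dormant KO at 4.65, 3.55 and 2.48 TPM and dormant WT at 5.71, 1.03 and 0.35 TPM.

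Of 15 further pericyte markers, 13 were in the table, 6 were tested and 4 rose in dormant KO over dormant WT, each tested only through dormant KO. Dormant KO held 65.53, 17.61 and 59.15 TPM of Higd1b and 7.92, 17.74 and 7.47 TPM of Steap4, and both were listed at 0 in all WT libraries. Mcam (CD146) was higher by 3.54 ± 0.51 (SE). The pericyte markers Rgs5, Cspg4 and Notch3 were at most 1.33, 0.27 and 0.06 TPM in dormant KO and did not pass the filter, and Pdgfrb, above, did not rise. Of 6 smooth muscle genes tested, 3 rose, 2 of them, Tagln included, tested only through dormant KO. Dormant KO held 35.49, 42.88 and 36.66 TPM of Tagln and 27.52, 81.34 and 13.84 TPM of Acta2, with both listed at 0 in dormant WT (adjusted p 0.000211 for Acta2).

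**Figure D3:**
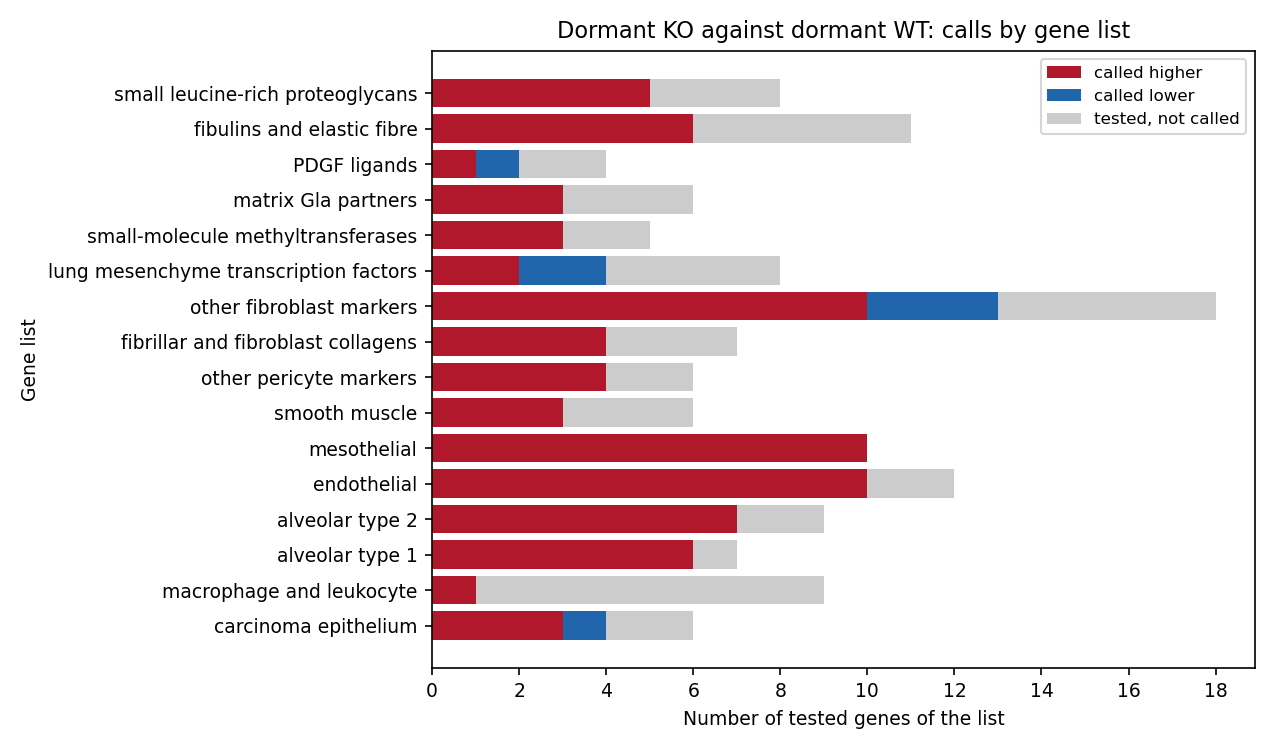
Number of genes called higher, called lower and not called in dormant KO against dormant WT, on the horizontal axis, for each list of related genes on the vertical axis, counting the genes tested, those tested only through dormant KO included. Lower calls stand in the lists of PDGF ligands, mesenchyme transcription factors, other fibroblast markers and carcinoma epithelium.

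Markers of other lung cells moved with Dcn, Mgp, Inmt and Tcf21. In dormant KO, 10 of 10 mesothelial, 10 of 12 endothelial, 7 of 9 alveolar type 2 and 6 of 7 alveolar type 1 genes tested rose over dormant WT. Of all genes tested, 12.9% rose and 9.39% fell in this comparison. Leaving aside the genes tested only through dormant KO, 5 of 5 mesothelial, 6 of 7 endothelial, 4 of 6 alveolar type 2 and 4 of 5 alveolar type 1 genes rose. The share over all genes was not computed without such genes. The alveolar type 2 list summed to 40070 to 42410 TPM in dormant KO, 48.95 to 141.3 in dormant WT, 55.86 to 97.59 in growing WT and 459.0 to 467.3 in growing KO. Surfactant protein C (Sftpc) made up most of the sum in both dormant groups, at 36571 to 39284 TPM in dormant KO and 41.20 to 141.11 TPM in dormant WT, while Abca3 was not called, at 0.70 to 2.69 and 0 to 9.25 TPM. The mesothelial list summed to 1587 to 1991, 0 to 55.64, 21.09 to 26.39 and 95.08 to 171.3 TPM in the same order of groups, and the endothelial list to 1141 to 1156, 11.72 to 148.4, 9.66 to 16.01 and 49.48 to 68.82 TPM. For alveolar type 1 genes the sums were 1001 to 1162 TPM in dormant KO, 1.40 to 84.2 in dormant WT, 29.81 to 36.48 in growing WT and 58.7 to 68.09 in growing KO. Genes of these lists at 0 in all 3 dormant WT libraries numbered 7 of 10 mesothelial, 1 of 12 endothelial, 0 of 9 alveolar type 2 and 0 of 7 alveolar type 1 genes, and in dormant KO 0 of each. Growing KO was above growing WT in every library for the mesothelial, endothelial and alveolar sums, as it was for Dcn and Inmt, whereas Mgp overlapped between the growing groups and Tcf21 was listed at 0 in both.

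The macrophage and leukocyte list did not follow the same order. It summed to 540.3 to 757.3 TPM in dormant KO, 708.4 to 988.5 in dormant WT, 76.01 to 108.0 in growing KO and 12.85 to 24.52 in growing WT, and 1 of 9 genes rose between the dormant groups, Itgax, which was tested only through dormant KO. Between dormant WT and growing WT 6 of the 9 rose, among them C1qa (5.75 ± 0.46, adjusted p 2.61e-05), in the comparison in which Inmt rose and Dcn fell. Over all genes tested, 1.85% rose there and 5.67% fell. Of 6 carcinoma epithelium genes tested, 3 rose in dormant KO over dormant WT, 2 of them (Krt7 and Epcam) tested only through dormant KO, 1 fell and 2 were not called. Krt8 and Krt18 were above 0 in all 12 libraries, with Krt18 at 158.54 to 248.67 TPM in dormant KO and 130.60 to 231.14 in dormant WT, and Krt8 fell (-1.62 ± 0.35, adjusted p 0.00541). Against growing KO both were lower in dormant KO, by differences of -1.39 ± 0.25 for Krt18 (0.00203), which was at 474.56 to 518.77 TPM in growing KO, and -1.58 ± 0.35 for Krt8 (0.00761). Krt7, Krt14 and Krt5 were listed at 0 in all 6 WT libraries, and dormant KO held 34.21, 61.46 and 29.60 TPM of Krt7. Cldn3 rose by 3.45 ± 0.67 (0.0029), and Epcam was at most 5.34 TPM in any library. In growing WT, Cldn3 was listed at 0 in all libraries and Epcam at 0, 0 and 0.16 TPM. Growing KO held 12.57, 6.86 and 1.98 TPM of Cldn3 and 0, 0 and 1.12 TPM of Epcam. The part of these cell types in the results for the 8 genes was not tested. In samples of pooled cells, fewer cells of a type and less RNA per cell cannot be told apart.

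**Figure D4:**
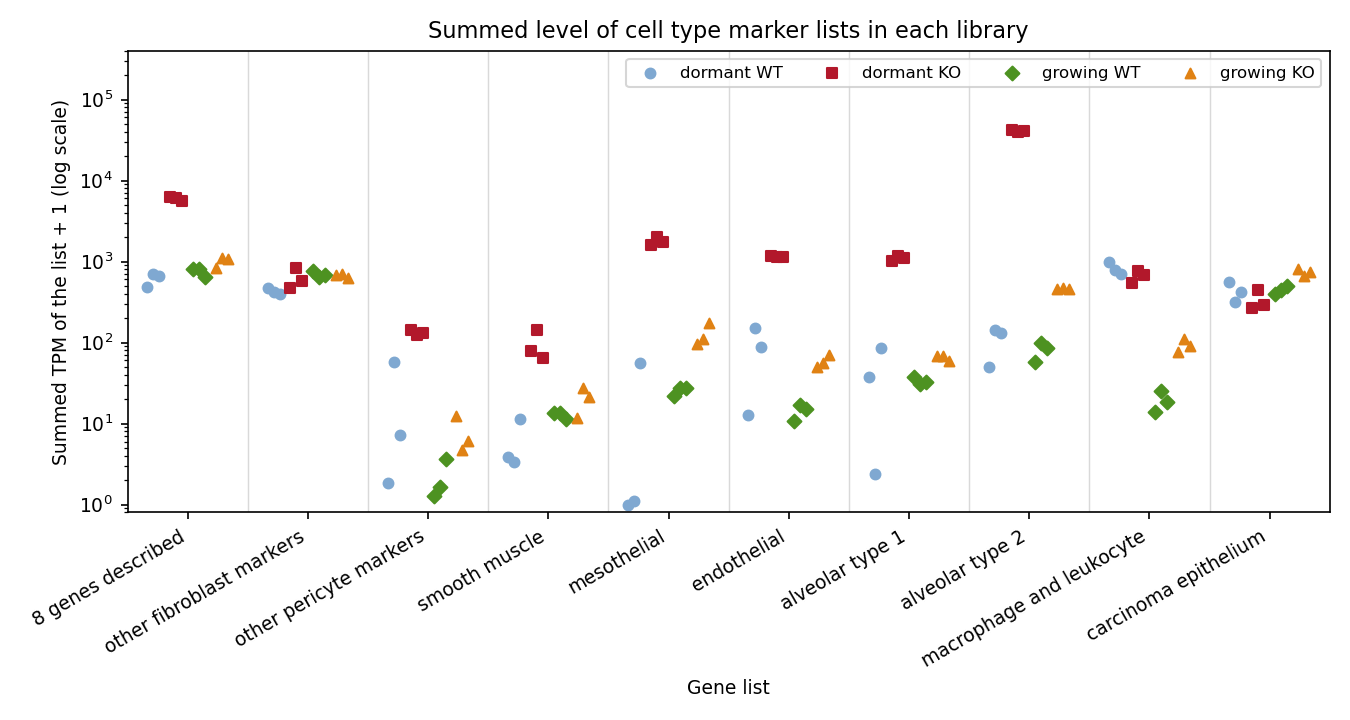
Summed TPM + 1 of the 8 genes and of 9 marker lists in each library, on a log axis, with 1 symbol per library and the group given by colour and shape. Dormant KO (squares) is highest for the 8 genes, pericyte, smooth muscle, mesothelial, endothelial and alveolar lists, and overlaps another group for other fibroblast markers, macrophage and leukocyte genes and carcinoma epithelium. In dormant KO the 8 genes summed to a mean of 5968 TPM, of which Mgp held 4205, Dcn 1172 and Inmt 561 TPM, so the sum does not describe the other members.

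The genes most like each of the 8 in pattern were found by Pearson's r of log2(TPM + 1) over the 12 libraries, as a description: the dormant KO libraries stand apart from the other 9 for many genes, and r over such libraries mostly records that. Dcn was most like RP23-4P23.3 (r = 0.987), Gm20721 (0.975) and Cpq (0.972), a carboxypeptidase at a mean of 137 TPM in dormant KO, 28.8 in growing KO, 8.08 in growing WT and 0 in dormant WT. Mgp was most like Cxcl15 (0.982), Prr15 (0.981) and Crip1 (0.981), of which Cxcl15, a chemokine of lung epithelium, had a mean of 78.1 TPM in dormant KO and at most 0.183 TPM elsewhere. For Tcf21 the nearest were Igf2, Lypd2 and Armcx2 (each 0.998), also at or near 0 outside dormant KO. Inmt was nearest to Tmem176b (0.96), Tmsb4x (0.959) and S1pr1 (0.958), and S1pr1, a receptor of endothelial cells and lymphocytes, had means of 99.8, 8.02, 4.59 and 1.10 TPM in dormant KO, dormant WT, growing KO and growing WT, the same order of groups as Inmt.

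The genes that did not rise in dormant KO had other neighbours. Lum was most like Rec114 (r = 0.985), Armc1 (0.969) and Trim16 (0.965), whose means were lowest in dormant KO, at 10.3, 6.40 and 3.46 TPM. Pdgfra was nearest to RP23-98C9.5 (0.944), Acp2 (0.935) and RP23-467K15.2 (0.923), and Pdgfrb to Bcl2 (0.895), Brd1 (0.866) and Rassf8 (0.842), each highest on average in dormant WT. Fbln1 was nearest to Wdr1 (0.929), Ndufs3 (0.884) and Ascc2 (0.871), with the means of Wdr1 running from 20.3 TPM in dormant KO to 61.4 TPM in growing KO. For the mean profile of all 8 the nearest were Cys1 (0.906), Gtf2ird2 (0.894), RP23-386K20.2 (0.892), Mpzl2 (0.888) and Nmb (0.882), each at a mean of 10.9 TPM or less in dormant KO.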

How the data were processed

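The deposited values are TPM per gene for 12 libraries in 4 groups of 3, estimated by the authors with RSEM after trimming with cutadapt and alignment with STAR to mm10. The submitters' processing notes give bcl2fastq 2.20, cutadapt 1.18, STAR 2.5.2b and RSEM 1.3.3. The study's methods name Smart-seq2 libraries, the labels a TruSeq mRNA kit. TPM keeps no depth, so no counting interval was computed and precision is the spread over 3 libraries. RSEM divides reads shared by similar or overlapping genes by an estimate. A further 30 per-sample columns had no labelled sample and were not used.

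Values were taken as deposited as log2(TPM + 1). Genes at 1 TPM or more in at least 3 libraries were tested (13002 of the 25916 above 0 in a library), with limma 3.58.1 in R 4.3.3 (eBayes with a trend, 1 mean per group, 8 residual degrees of freedom) and Benjamini-Hochberg adjustment over all of them, two-sided, for 5 contrasts. Calls needed an adjusted p of at most 0.05 and a difference of at least 1. Because TPM are not counts, the DESeq2 model of the authors was not used. Where a group is listed at 0 in all 3 libraries no fold is given, and list medians leave such genes out. Scripts were tested on simulated data.

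The 8 genes, the 16 lists of related genes and the tests were chosen with earlier results of these data known. Named genes were the 8, up to 3 higher and 3 lower called genes per list and contrast by size, and the 3 genes nearest to each of the 8 (5 for their mean); other genes were named after looking at their values. Alternatives were array weights, a replicate block, pseudocounts of 0.1 and 5, quantile normalization, median-ratio scaling, fits restricted to the compared groups, no filter or one of 5 TPM, no minimum difference, and leaving out each library. Coordinates are GENCODE M21 on GRCm38, the build of the files.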

Additional observations from a re-analysis of the deposited data

Results flagged for a closer look

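The difference between dormant and growing cells was itself different in KO and WT hosts for 3 of the 8 genes, by the interaction term of the limma fit over all 12 libraries, in which 6.18% of all genes were higher and 3.91% lower. Leaving aside genes with fewer than 3 libraries at 1 TPM outside dormant KO, it was also called higher for 4 of 5 mesothelial, 4 of 6 alveolar type 2, 4 of 5 alveolar type 1 and 3 of 7 endothelial genes. The shares over all genes do not leave such genes aside. Of the further fibroblast markers, 4 of 13 were higher, and 3 (Scara5, Serpinf1 and Olfml3) were lower. Macrophage and leukocyte genes gave 0 of 6 higher and 3 lower (C1qa, C1qb and C1qc), and Prrx1 (-4.68 ± 0.91) and Krt8 (-2.12 ± 0.49) were lower too. For Dcn the adjusted p of the interaction was 0.00321: Dcn was higher in dormant than in growing cells in KO hosts and lower in WT hosts. For Mgp it was 2.71e-05, with a rise in KO hosts and no call in WT hosts. Dcn and Mgp were called in all 20 alternative fits of the interaction. For Tcf21 it was 0.000826, but this gene is above 0 in the dormant KO libraries alone and passed the filter only through them, so its difference was fixed in advance and is no support. Host and library batch are the same split, so which of them goes with these differences cannot be told apart.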

How the results depend on the processing

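Over 785 refits of single results for the 8 genes, 739 kept direction and call, 15 lost a call, 7 gained one and 24 turned direction. The cause was not tested. Results that were not called and stayed so are counted among the 739. So are all refits of the Tcf21 calls, whose outcome was fixed by the filter and is no support. The number of the 8 genes called in growing KO against growing WT was 1 in the fit reported, 0 with a pseudocount of 0.1 and 2 with array weights. In dormant WT against growing WT it was 2, and 0 with a fit of only the groups compared and with array weights, and it ran from 1 to 2 when a library was left out. In dormant KO against dormant WT it was 4, 5 with quantile normalization and 6 without dormant WT replicate 2. In dormant KO against growing KO it was 4 and ran from 3 to 5: Dcn lost its call in 8 of 21 alternatives and Lum gained one in 3.

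Directions turned in differences that were not called. When a library was left out, the growing KO difference from growing WT ran from -0.14 to 0.13 for Mgp, from -0.84 to 0.03 for Pdgfra and from -0.19 to 0.62 for Fbln1. The dormant WT difference from growing WT ran from -2.86 to 0.24 for Lum, from -0.18 to 1.31 for Pdgfra and from -0.54 to 0.98 for Pdgfrb, which was -0.61 with a pseudocount of 0.1. For Pdgfrb the dormant KO difference from growing KO was 0.03 with a pseudocount of 5 and 0.23 with median-ratio scaling, and ran from -0.58 to 0.43 without a library; its interaction was 0.27 with a pseudocount of 0.1 and 0.08 with median-ratio scaling, and ran from -1.0 to 0.52.

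After the group mean of each gene was subtracted, the remaining deviations of same-numbered libraries of the 2 states correlated at -0.0123 to 0.0206. These libraries were not taken as pairs. A replicate block left the number of the 8 genes called at 4, 1, 2, 4 and 3 in the 5 contrasts. Over all genes the calls of dormant KO against dormant WT went from 2898 to 1680 in a fit of those groups and to 1418 with array weights, and those of growing KO against growing WT from 127 to 308 and 516, and to 73 without growing WT replicate 3. Calls of dormant WT against growing WT went from 977 to 637 with no filter, 310 with array weights, 1930 without dormant WT replicate 1 and 452 without growing WT replicate 3; those of dormant KO against growing KO from 2313 to 3586 with array weights, and those of the interaction from 1312 to 870 without growing WT replicate 3. The median of all genes between the dormant groups moved from 0.17 to 0.50 with median-ratio scaling and to -0.14 with quantile normalization, and the calls of Dcn, Mgp and Inmt there held in both. Depth is unknown, so values near 0 have no interval.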
